A study of Mus musculus with 8 samples.

Results

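The genes described here encode the proteins of elastic fibres and their microfibrils. They are *Eln*, *Fbn1*, *Fbn2*, *Fbln1*, *Fbln2*, *Fbln5*, *Efemp1*, *Efemp2*, *Mfap4* and *Mfap5*, taken by symbol from the count files, and all 10 of them were found among the 18957 genes listed. Each of the 8 samples is bulk RNA of PDGFRA-positive, lineage-negative cells that FACS had collected from the ventricles of the mouse heart. The comparison was between 4 WT and 4 *Pdgfra-Cre:LmnaF/F* libraries, all on the strain labelled C57BL/6 (mixed) and from mice 3 to 4 weeks old, and it asked how loss of lamin A/C in fibroblasts changed their transcripts before overt cardiac dysfunction. The WT mice were littermates with wild-type alleles only. The *Pdgfra-Cre:LmnaF/F* mice carried both floxed *Lmna* alleles and a BAC transgene that drives Cre from the *Pdgfra* promoter. That promoter is active in many mesenchymal tissues and, during development, in some cardiac myocytes. Libraries of mice with the Cre alone were not analysed here, so the effect of the Cre and that of the *Lmna* deletion cannot be told apart.

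An elastic fibre is a core of cross-linked elastin within a mantle of fibrillin microfibrils. Fibulins carry the soluble elastin precursor, tropoelastin, to the microfibrils, where lysyl oxidases join it into an insoluble polymer, and microfibrils also hold latent TGF-beta through its binding proteins. In the heart these fibres lie in the interstitium, the valves, the endocardium and the vessel walls, and fibroblasts are among the cells that make them.

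*Eln* and *Mfap4* transcripts were lower in the *Pdgfra-Cre:LmnaF/F* fibroblasts. *Eln* fell 2.69-fold and *Mfap4* 4.09-fold, and no *Pdgfra-Cre:LmnaF/F* library reached the lowest WT library for either gene. The other 8 genes did not pass the test, and for 2 of them, *Fbn1* and *Fbln1*, the 95% confidence interval of the difference lay below 0. Over the 10 genes, 2 were called at an adjusted p under 0.05 with the quasi-likelihood test of edgeR, against 0.407% of the 13036 genes tested in either direction and 0.238% of them called as lower. The unadjusted p was under 0.05 for 4 of the 10 genes, against 11.9% of all genes tested. In 3 of the 10 every *Pdgfra-Cre:LmnaF/F* value was below every WT value, which held for 3.97% of all genes. The median log2 fold change was -0.49 over the 10 genes and 0.02 over all genes tested.

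The libraries held between 2080555 and 12502949 counts, and WT replicate 2 had the lowest total. *Lmna*, the deleted gene, was lower in every *Pdgfra-Cre:LmnaF/F* library, at 90.4 to 130.0 CPM (counts scaled to a common library size with TMM factors) against 274 to 483 CPM in WT. Its log2 fold change was -1.72 (SE 0.22, edgeR adjusted p = 0.00492). *Dcn*, the fibroblast marker at the highest level, lay between 10205 and 23470.2 CPM. The 8 cardiac myocyte markers, with *Ttn* the highest of them, summed to 733.5 to 1019.6 CPM in WT, to 296 to 886 CPM in *Pdgfra-Cre:LmnaF/F* replicates 1 to 3, and to 5699 CPM in replicate 4. Of their 7 tested markers 6 had log2 fold changes above 0, with a median of 1.18, 0 called with edgeR and 1 at an unadjusted p under 0.05. The summed markers of smooth muscle and pericytes (led by *Rgs5*), which also make elastin, lay between 279 and 436 CPM in WT and between 224 and 609 CPM in *Pdgfra-Cre:LmnaF/F*, with 5 of 8 tested markers below 0, a median of -0.16 and 0 called with edgeR or at an unadjusted p under 0.05. Those of leukocytes (*C1qa*) summed to 23 to 65.9 CPM in WT, to 20.8 to 67.3 CPM in *Pdgfra-Cre:LmnaF/F* replicates 1 to 3 and to 159.6 CPM in replicate 4. Of the 5 tested leukocyte markers 4 had log2 fold changes above 0, with a median of 0.50, 0 called with edgeR and 1 at an unadjusted p under 0.05. The endothelial markers (led by *Pecam1*) summed to 179.6 to 279.6 CPM in WT and to 108 to 236 CPM in *Pdgfra-Cre:LmnaF/F*, and the mesothelial markers (*Upk3b*) to 11 to 45.8 and 6.67 to 15.7 CPM. All 6 endothelial and all 6 mesothelial markers had log2 fold changes below 0, with medians of -0.37 and -1.05, and none was called with edgeR, 1 endothelial and 0 mesothelial markers having an unadjusted p under 0.05. Since the RNA is of many cells at once, fewer cells of a type and less RNA per cell cannot be told apart.

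All 10 genes passed the filter on low counts, and no library listed any of them at or under 3 counts. The lowest value was 80 counts, for *Efemp1* in *Pdgfra-Cre:LmnaF/F* replicate 3, and the highest was 58240 counts, for *Fbln2* in *Pdgfra-Cre:LmnaF/F* replicate 4.

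**Figure D1:**
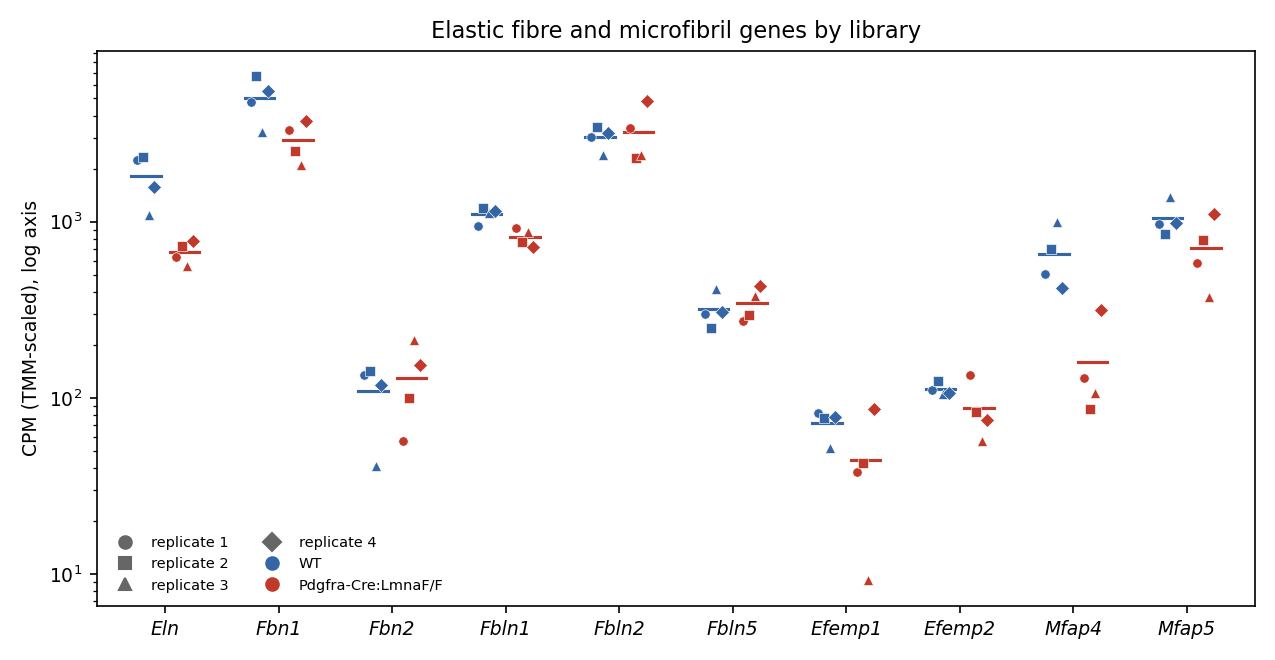
CPM of the 10 genes in each of the 8 libraries on a log axis, with WT in blue, *Pdgfra-Cre:LmnaF/F* in red, a symbol for each replicate and a line at each group's mean. *Eln*, *Fbln1* and *Mfap4* are the genes whose groups do not overlap, and *Efemp1* reaches down to 9.21 CPM in *Pdgfra-Cre:LmnaF/F* replicate 3.

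*Eln* encodes tropoelastin, the protein of the fibre's core. The gene lies on chromosome 5 (134702593 to 134747323, minus strand, GRCm38, the assembly of mm10). In WT it was at 2241, 2341, 1097 and 1564 CPM in replicates 1 to 4, with a mean of 1811 ± 588 CPM (SD, n = 4). In *Pdgfra-Cre:LmnaF/F* it was at 631.5, 731, 560.4 and 773 CPM, with a mean of 674 ± 96.2 CPM (SD, n = 4). The *Pdgfra-Cre:LmnaF/F* libraries lay close together below all WT libraries, and WT replicate 3 was the nearest to them. The WT coefficient of variation was 32.5% and that of *Pdgfra-Cre:LmnaF/F* was 14.3%. The log2 fold change was -1.43 (SE 0.25, 95% confidence interval -1.96 to -0.89, edgeR adjusted p = 0.0303).

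The direction of *Eln* held whichever single library was dropped, with log2 fold changes between -1.61 and -1.28, while the call held in 2 of the 8 fits. The edgeR adjusted p was 0.00886 without WT replicate 3 and 0.0191 without *Pdgfra-Cre:LmnaF/F* replicate 4. It rose to 0.0898 without WT replicate 1, 0.0756 without WT replicate 2 and 0.0533 without WT replicate 4. It was 0.0527, 0.0764 and 0.108 without *Pdgfra-Cre:LmnaF/F* replicate 1, 2 and 3. Without both the library of the lowest depth and the one with the most myocyte marker counts it was 0.0455. With the summed myocyte markers as a covariate it was 0.0139.

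*Fbn1* encodes fibrillin-1, the main scaffold of microfibrils after birth, and *Fbn2* encodes fibrillin-2, which is used mainly before birth. *Fbn1* was at 4797, 6709, 3237 and 5499 CPM in WT (mean 5060.4 ± 1449.5, SD, n = 4) and at 3317, 2508, 2099 and 3731 CPM in *Pdgfra-Cre:LmnaF/F* (mean 2914 ± 743.5, SD, n = 4). The groups overlapped only through WT replicate 3, which lay below *Pdgfra-Cre:LmnaF/F* replicates 1 and 4. The log2 fold change of -0.80 (SE 0.26, 95% confidence interval -1.35 to -0.24) had an unadjusted p of 0.00835 and an edgeR adjusted p of 0.222. *Fbn1* was called with DESeq2 (adjusted p = 0.0345) and with limma-voom with quality weights (adjusted p = 0.045), but it stayed above the threshold whichever single library was dropped.

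*Fbn2* spread the most of the 10 genes in WT, over 3.47-fold from the lowest to the highest library. It was at 134, 143, 41.2 and 118 CPM in WT and at 56.7, 99.4, 212 and 153 CPM in *Pdgfra-Cre:LmnaF/F*. The groups overlapped broadly, with the WT library of replicate 3 lowest of all and the *Pdgfra-Cre:LmnaF/F* library of replicate 3 highest of all. Its log2 fold change was 0.26 (SE 0.39, 95% confidence interval -0.57 to 1.09, edgeR adjusted p = 0.866). It turned to -0.02 without WT replicate 3, to -0.07 without *Pdgfra-Cre:LmnaF/F* replicate 3 and to -0.19 with limma-voom.

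*Fbln1* encodes fibulin-1, found within elastic fibres and in basement membranes. It was at 945, 1196, 1114 and 1149.6 CPM in WT (mean 1101 ± 109, SD, n = 4) and at 919, 770.3, 878 and 721 CPM in *Pdgfra-Cre:LmnaF/F* (mean 822 ± 92.4, SD, n = 4). The groups did not overlap, but the nearest libraries, replicate 1 of each genotype, were only 945 and 919 CPM. The log2 fold change was -0.42 (SE 0.19, 95% confidence interval -0.83 to -0.02), with an unadjusted p of 0.0423 and an edgeR adjusted p of 0.401.

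*Fbln2*, for fibulin-2, a fibulin that binds fibrillin-1 and tropoelastin, was at 3018, 3459, 2388 and 3168 CPM in WT and at 3391, 2286, 2396 and 4853 CPM in *Pdgfra-Cre:LmnaF/F*. The *Pdgfra-Cre:LmnaF/F* libraries enclosed the WT range on both sides. For *Fbln2* the log2 fold change was 0.10 (SE 0.26, 95% confidence interval -0.44 to 0.65, edgeR adjusted p = 0.928). The highest library was *Pdgfra-Cre:LmnaF/F* replicate 4, the one with the most myocyte marker counts, and without it the value was -0.16.

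*Fbln5* encodes fibulin-5, which tethers tropoelastin to microfibrils and to cells. It was at 299, 249, 417 and 309 CPM in WT (mean 318.5 ± 70.6, SD, n = 4) and at 273, 296, 379 and 431 CPM in *Pdgfra-Cre:LmnaF/F* (mean 345 ± 73.3, SD, n = 4). The groups overlapped over most of their range. Between the genotypes the log2 fold change was 0.11 (SE 0.22, 95% confidence interval -0.36 to 0.58, edgeR adjusted p = 0.901), and it was -0.01 without *Pdgfra-Cre:LmnaF/F* replicate 4.

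*Efemp1* (fibulin-3) and *Efemp2* (fibulin-4, which brings lysyl oxidase to tropoelastin) were at lower counts. *Efemp1* was at 82.0, 77.0, 52.2 and 78.2 CPM in WT and at 37.9, 42.8, 9.21 and 86.9 CPM in *Pdgfra-Cre:LmnaF/F*. Of the *Pdgfra-Cre:LmnaF/F* libraries 3 lay below all of WT and replicate 4 above all of it, so the range within this genotype was 9.44-fold. This gave a log2 fold change of -0.71 (SE 0.44, 95% confidence interval -1.66 to 0.24, edgeR adjusted p = 0.584), which was -1.27 without replicate 4 and -0.37 without replicate 3 of *Pdgfra-Cre:LmnaF/F*.

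*Efemp2* was at 111, 125, 106 and 106.5 CPM in WT, the tightest group of any of the 10 genes, with a coefficient of variation of 7.89%. In *Pdgfra-Cre:LmnaF/F* it was at 134, 83.4, 56.9 and 75.1 CPM, with a coefficient of variation of 37.9%. Replicate 1 lay above every WT library and the other 3 below them. For *Efemp2* the log2 fold change was -0.36 (SE 0.24, 95% confidence interval -0.88 to 0.16, edgeR adjusted p = 0.623), which was -0.64 without replicate 1 and -0.20 without replicate 3 of *Pdgfra-Cre:LmnaF/F*.

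Sequence upstream of the transcription start is shown for a fibulin gene whose groups did not overlap, *Fbln1*, and for one whose groups overlapped, *Fbln5*. The bases are from RefSeq's promoter table (GRCm38.p6), from which 6 of the 10 genes were used, with 10 starts in all. *Eln*, *Fbn2*, *Mfap4* and *Mfap5* are not shown. Each is the 250 bases before the start, printed 5′ to 3′ on the gene's strand, from windows that no annotated exon overlaps, and capitals mark the GC box (GGGCGG or its reverse complement CCGCCC).
*Fbln1*, chr15:85205699-85205948, plus strand: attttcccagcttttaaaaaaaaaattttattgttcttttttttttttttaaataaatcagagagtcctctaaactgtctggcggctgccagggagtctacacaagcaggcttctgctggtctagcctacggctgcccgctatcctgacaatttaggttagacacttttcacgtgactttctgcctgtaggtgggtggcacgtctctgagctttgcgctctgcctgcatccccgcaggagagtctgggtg
*Fbln5*, chr12:101819120-101819369, minus strand: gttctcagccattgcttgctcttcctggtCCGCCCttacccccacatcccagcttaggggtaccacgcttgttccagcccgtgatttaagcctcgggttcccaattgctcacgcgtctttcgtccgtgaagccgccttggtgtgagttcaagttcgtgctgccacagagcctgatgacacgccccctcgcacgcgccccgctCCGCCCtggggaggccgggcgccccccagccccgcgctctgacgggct

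The printed *Fbln5* window held 2 GC boxes and was 65.2% G and C, and the printed *Fbln1* window held none and was 46.4% G and C. The windows of their other starts, which overlap an exon, went the other way. That of *Fbln5* held no GC box and was 49.6% G and C, and that of *Fbln1* held 1 and was 62.4%. The median over all 32851 promoter windows of this length was 52.4%, and 32.7% of them held a GC box. A GC box was found for at least 1 start of each of the 6 genes used, in 8 of the 10 windows. The TATA box TATAAA, sought on both strands, was in no window of these 6 genes and in 12.4% of all windows.

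*Mfap4* encodes a microfibril-associated glycoprotein that binds tropoelastin and fibrillin. It lies on chromosome 11 (61485431 to 61488900, plus strand). In WT it was at 502, 697, 989.8 and 418 CPM in replicates 1 to 4, with a mean of 652 ± 254 CPM (SD, n = 4). In *Pdgfra-Cre:LmnaF/F* it was at 129.5, 86.9, 107 and 314 CPM, with a mean of 159 ± 105 CPM (SD, n = 4). Replicate 4 was the only *Pdgfra-Cre:LmnaF/F* library near WT, and it still lay below the lowest WT library. The log2 fold change was -2.03 (SE 0.38, 95% confidence interval -2.85 to -1.21, edgeR adjusted p = 0.0368), the lowest of the 10 genes.

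Leaving out *Pdgfra-Cre:LmnaF/F* replicate 4 took the log2 fold change of *Mfap4* to -2.60 (edgeR adjusted p = 0.00162), and without WT replicate 4 it was -2.20 (edgeR adjusted p = 0.05, just under the threshold before rounding). The call was lost in the other 6 such fits. The edgeR adjusted p was 0.0596, 0.085 and 0.0691 without WT replicates 1, 2 and 3, and 0.0767, 0.093 and 0.157 without *Pdgfra-Cre:LmnaF/F* replicates 1, 2 and 3. With the summed myocyte markers as a covariate, the log2 fold change was -2.29 (edgeR adjusted p = 0.00477). With a block for the replicate number it was -2.17 and the call was lost (edgeR adjusted p = 0.0601). The exons of *Mfap4* share 89 bases, 4.63% of their length, with those of *Mapk7* on the opposite strand, and *Mapk7* had a log2 fold change of -0.41 (SE 0.26, edgeR adjusted p = 0.592). Exons of 4 more of the 10 genes share bases with a gene on the opposite strand, at 20.1% of the exon length of *Fbn1* (*Gm9913*, at 2.97 CPM in WT and 2.2 CPM in *Pdgfra-Cre:LmnaF/F*), 4.57% of *Efemp2* (*Mus81*), 3.30% of *Eln* (*Gm30003*) and 0.976% of *Fbn2* (*Gm26507*). The libraries kept the strand, and whether the counting used it is not given in the sources used here.

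*Mfap5* encodes a small microfibril glycoprotein that binds fibrillins and Notch ligands. It was at 965, 849, 1383 and 979 CPM in WT (mean 1044 ± 234, SD, n = 4) and at 586, 783, 374 and 1098 CPM in *Pdgfra-Cre:LmnaF/F* (mean 710.3 ± 308, SD, n = 4). Of the *Pdgfra-Cre:LmnaF/F* libraries 3 lay below all of WT, and replicate 4 lay within the WT range. *Mfap5* had a log2 fold change of -0.56 (SE 0.29, 95% confidence interval -1.17 to 0.06, edgeR adjusted p = 0.478), which was -0.85 without replicate 4 and -0.34 without replicate 3 of *Pdgfra-Cre:LmnaF/F*.

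**Figure D2:**
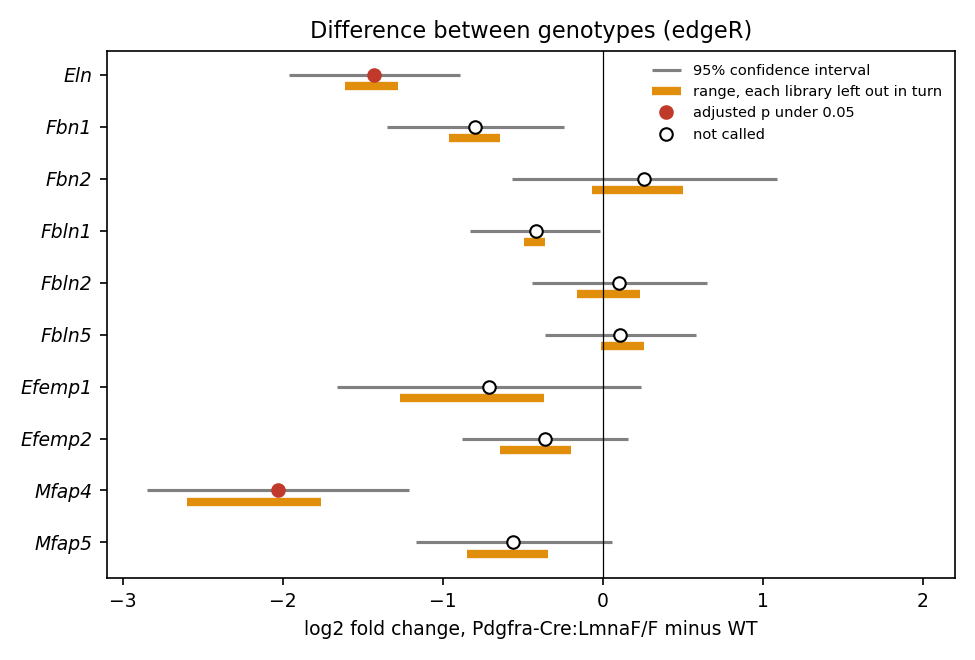
Log2 fold change of the 10 genes, *Pdgfra-Cre:LmnaF/F* minus WT, with the 95% confidence interval in grey and, in orange, the range over the 8 fits that each left out 1 library. The filled red points of *Eln* and *Mfap4* passed the adjusted threshold, and the orange ranges of *Fbn2*, *Fbln2* and *Fbln5* reach both sides of 0.

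Markers of adventitial fibroblasts, the fibroblasts around larger vessels, had summed levels that did not overlap between the genotypes. The 10 markers, none of them at 0 in every library, summed to 3205 to 3875 CPM in WT and to 728 to 1862 CPM in *Pdgfra-Cre:LmnaF/F*. All 10 had log2 fold changes below 0, with a median of -0.95, and 1 was called. Of the 10, 8 were lower at an unadjusted p under 0.05, against 5.65% of all genes tested. The marker at the highest level, *Pi16*, had a log2 fold change of -1.51 (SE 0.40, edgeR adjusted p = 0.134). The 1 marker called, *Cd248*, named here after its values were seen, had -1.84 (SE 0.32, edgeR adjusted p = 0.0255), and it lost the call without WT replicate 2 (0.0685), WT replicate 4 (0.0523), *Pdgfra-Cre:LmnaF/F* replicate 2 (0.0604) or *Pdgfra-Cre:LmnaF/F* replicate 3 (0.108). The general fibroblast markers had a median log2 fold change of -0.06 with 0 of 8 called by edgeR and 0 of 8 at an unadjusted p under 0.05. What part the cells of the adventitial, endothelial or mesothelial markers have in the differences of *Eln* and *Mfap4* was not tested.

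Levels were compared between genes per kilobase of exon, so that long transcripts such as the 12.128 kb of *Fbn1* do not rank high by length alone. In WT, 6 of the genes stood within a narrow band. They were *Fbln2* at 472 ± 71.0 CPM per kb, *Fbn1* at 417 ± 119.5, *Mfap4* at 339 ± 132, *Mfap5* at 291 ± 65.1, *Fbln1* at 252 ± 25.0 and *Eln* at 224 ± 72.6 (SD, n = 4). Each of these overlapped its neighbour in the order. *Fbln2* ranked 47 and *Eln* 141 among the 12988 tested genes with a known length.

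A gap followed below *Eln*, where *Fbln5* was 4.85-fold lower at 46.1 ± 10.2 CPM per kb with no overlap between their libraries. *Efemp1* at 35.5 ± 6.67 and *Efemp2* at 29.6 ± 2.33 CPM per kb overlapped their upper neighbours. *Fbn2* was the lowest at 8.25 ± 3.51 CPM per kb, 3.58-fold below *Efemp2* and without overlap.

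In *Pdgfra-Cre:LmnaF/F* the order per kilobase was *Fbln2*, *Fbn1*, *Mfap5*, *Fbln1*, *Eln*, *Mfap4*, *Fbln5*, *Efemp2*, *Efemp1* and *Fbn2*. *Fbln2*, at 507 ± 187 CPM per kb, no longer overlapped *Fbn1*, which was at 240.2 ± 61.3 CPM per kb. *Mfap4* had gone from the third place to the sixth, at 82.9 ± 54.4 CPM per kb, beside *Eln* at 83.2 ± 11.9 CPM per kb. The ranges of *Mfap4* and its lower neighbour *Fbln5*, at 49.9 ± 10.6 CPM per kb, now overlapped. Within each library *Mfap4* was still above *Fbln5*. The rank among all tested genes with a length was 417 for *Eln* and 421 for *Mfap4*.

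**Figure D3:**
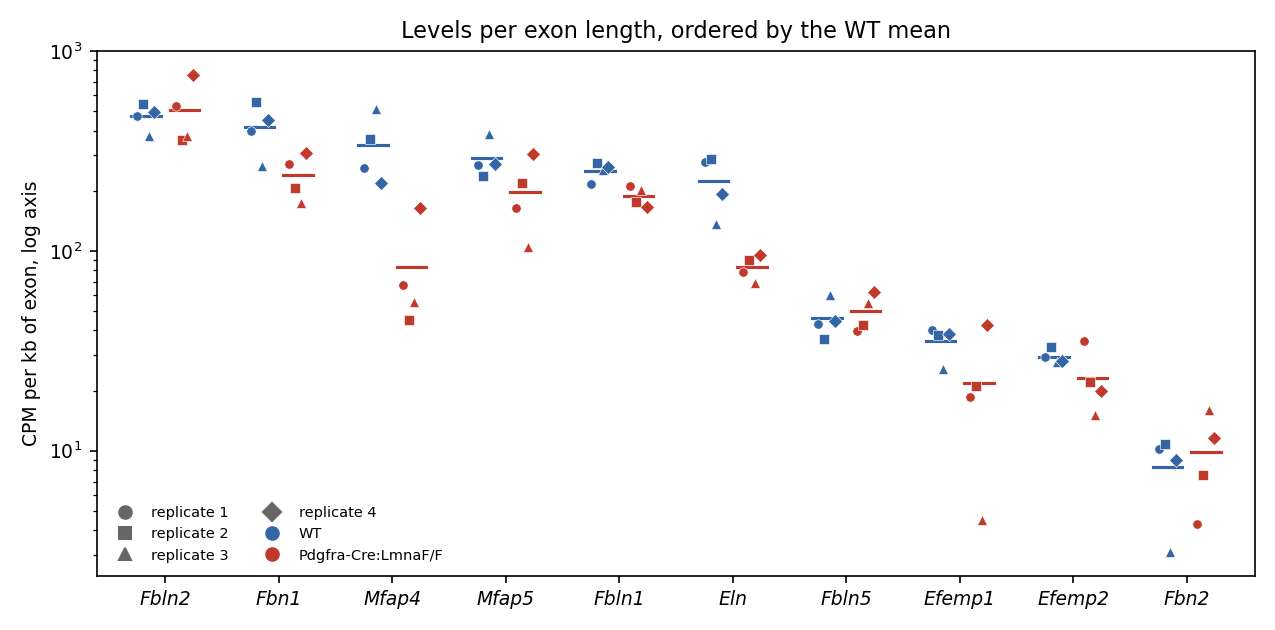
CPM per kilobase of exon of each library on a log axis, with the genes in the order of their WT mean, WT in blue, *Pdgfra-Cre:LmnaF/F* in red and a line at each group's mean. The means of 6 genes in WT lie between 224 and 472 CPM per kb, and the means of *Mfap4* and *Eln* in *Pdgfra-Cre:LmnaF/F* at 82.9 and 83.2 CPM per kb.

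Since related genes are counted in the same library, their ratio does not depend on the library's total. Ratios were compared for 5 pairs on the log2 scale with an exact two-sided permutation test over the 70 assignments of libraries, whose smallest possible p is 0.0286. The log2 ratio of *Mfap5* to *Mfap4* was 0.94, 0.28, 0.48 and 1.23 in WT and 2.18, 3.17, 1.81 and 1.81 in *Pdgfra-Cre:LmnaF/F*. Every *Pdgfra-Cre:LmnaF/F* library was above every WT library, by a mean of 1.51 on the log2 scale or 2.84-fold (exact permutation p = 0.0286, adjusted over the 5 pairs 0.0714).

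The log2 ratio of *Fbln5* to *Eln* was -2.91, -3.23, -1.40 and -2.34 in WT and -1.21, -1.31, -0.56 and -0.84 in *Pdgfra-Cre:LmnaF/F*. It was also higher in 4 of 4 *Pdgfra-Cre:LmnaF/F* libraries than in any WT library, by 1.49 on the log2 scale or 2.80-fold (exact permutation p = 0.0286, adjusted 0.0714). Neither ratio passed 0.05 after adjustment, and both had the smallest p the design allows.

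The other 3 ratios did not pass the test before adjustment. For *Fbn2* to *Fbn1* the difference was 1.03 on the log2 scale (exact permutation p = 0.114, adjusted 0.19), with 3 of 4 *Pdgfra-Cre:LmnaF/F* libraries above all of WT and replicate 1 within the WT range, and it was 0.59 without *Pdgfra-Cre:LmnaF/F* replicate 3. For *Fbln2* to *Fbln1* it was 0.47 (exact permutation p = 0.2, adjusted 0.25), and 0.19 without *Pdgfra-Cre:LmnaF/F* replicate 4. For *Efemp2* to *Efemp1* it was 0.65 (exact permutation p = 0.371, adjusted 0.371), with *Pdgfra-Cre:LmnaF/F* libraries both above and below the WT range. Without *Pdgfra-Cre:LmnaF/F* replicate 3 this last value was 0.21, and without replicate 4 it was 1.15.

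**Figure D4:**
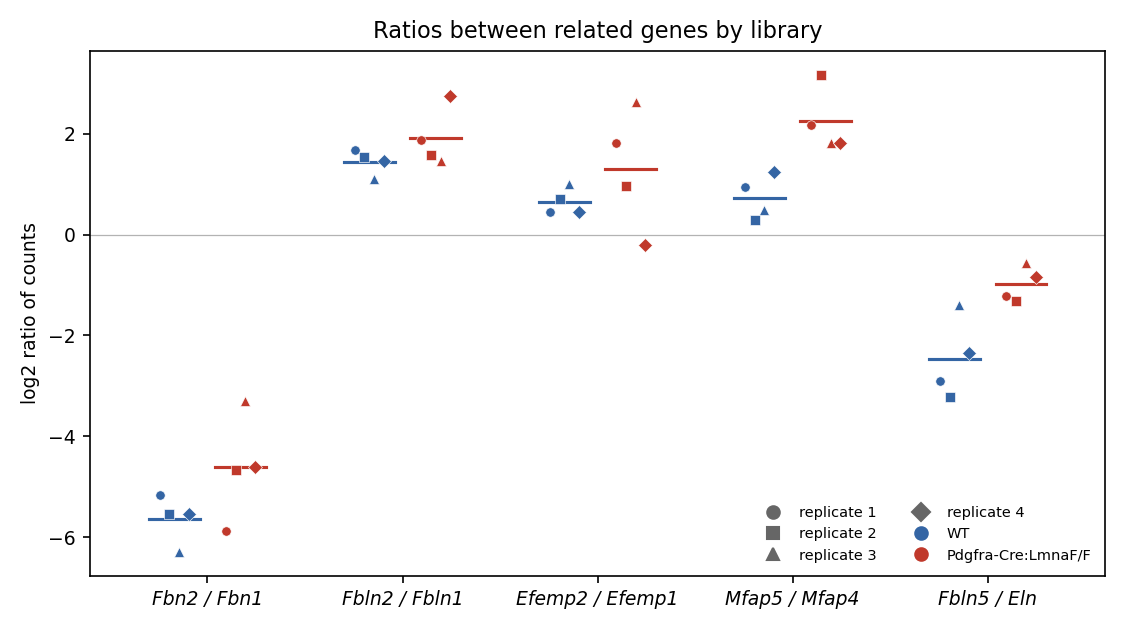
Log2 ratio of counts between 5 pairs of the genes in each library, with WT in blue, *Pdgfra-Cre:LmnaF/F* in red and a line at each mean. The groups separate for *Mfap5* to *Mfap4* and for *Fbln5* to *Eln*, by 1.51 and 1.49 on the log2 scale, and overlap for the other 3 pairs.

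Genes that work with these 10 were taken from 5 lists of 58 genes, of which 56 were tested. Of those, 1 was called as lower and 0 as higher with edgeR, and the median log2 fold change was -0.19. At an unadjusted p under 0.05, 16 of the 56 were lower and 2 higher, against 5.65% and 6.24% of all genes tested. *Hmcn2* was also called with DESeq2, with limma-voom and with edgeR under no filter on low counts. DESeq2 further called *Adamts17*, *Adamtsl2*, *Ltbp4*, *Loxl2*, *Timp1* and *Timp2*, and limma-voom *Adamtsl2* and *Ltbp4*. With no filter, edgeR further called *Adamts17*, *Adamtsl2*, *Lox*, *Loxl2* and *Timp1*. Over all genes, DESeq2 called 303, limma-voom 138 and edgeR with no filter 274, against 53 in the main fit. The list of other microfibril and elastic fibre proteins held the called gene, with 9 of its 19 tested genes lower at an unadjusted p under 0.05, none higher, and a median of -0.63. *Hmcn2* encodes hemicentin-2, a large matrix protein related to fibulins and fibrillins. It was at 857, 1935, 905.5 and 1087 CPM in WT and at 312, 266, 226 and 497 CPM in *Pdgfra-Cre:LmnaF/F*, so all *Pdgfra-Cre:LmnaF/F* libraries were below WT. Its log2 fold change was -1.88 (SE 0.31, edgeR adjusted p = 0.0219), and the adjusted p rose to 0.0658 without *Pdgfra-Cre:LmnaF/F* replicate 2 and 0.0848 without replicate 3.

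In the same list, *Adamtsl2*, for a secreted protein that binds fibrillin-1 and latent TGF-beta binding proteins, had a log2 fold change of -1.25 (SE 0.35, edgeR adjusted p = 0.16). It was called when *Pdgfra-Cre:LmnaF/F* replicate 4 was left out (-1.69, edgeR adjusted p = 0.0191), and it was -0.86 (edgeR adjusted p = 0.424) without WT replicate 2. *Adamts17*, for a protease linked to fibrillin microfibrils, had -2.19 (SE 0.57, edgeR adjusted p = 0.13), and its WT libraries ran from 6.04 to 62.7 CPM, overlapping *Pdgfra-Cre:LmnaF/F* at 5.83 to 7.83 CPM. Without WT replicate 1, the highest of them, the value was -1.53 (edgeR adjusted p = 0.424).

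Of the 7 genes for latent TGF-beta binding proteins and their ligands none was called with edgeR. At an unadjusted p under 0.05, 2 of them were lower and none higher, against 5.65% and 6.24% of all genes tested. *Ltbp4*, whose protein also helps fibulin-5 lay down elastin, was at 1484 to 2770.4 CPM in WT and at 1026 to 1438 CPM in *Pdgfra-Cre:LmnaF/F*, without overlap (log2 fold change -0.87, SE 0.23, edgeR adjusted p = 0.129). *Tgfb3*, a ligand, did not overlap either (-0.55, SE 0.19, edgeR adjusted p = 0.249). *Ltbp1* overlapped, at -0.21 (SE 0.24, edgeR adjusted p = 0.817), and ran from -0.39 to -0.07 with single libraries left out.

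Among the 6 lysyl oxidases and related enzymes, 2 had an unadjusted p under 0.05 as lower and 1 as higher, and 0 were called with edgeR. Such a p was found for 5.65% of all genes tested as lower and for 6.24% as higher. *Lox*, for the enzyme that cross-links elastin and collagen, was at 88.3, 154, 73.3 and 94.3 CPM in WT and at 115, 168, 373 and 826 CPM in *Pdgfra-Cre:LmnaF/F*. The highest value was in *Pdgfra-Cre:LmnaF/F* replicate 4, and the groups overlapped through WT replicate 2. Its log2 fold change was 1.86 (SE 0.48, edgeR adjusted p = 0.125), and it was 1.10 without that library and 2.16 with a call (edgeR adjusted p = 0.0433) without *Pdgfra-Cre:LmnaF/F* replicate 1. *Loxl2* at -0.88 (SE 0.25, edgeR adjusted p = 0.16) and *Loxl1*, for the oxidase most tied to elastin upkeep, at -0.53 (SE 0.22, edgeR adjusted p = 0.354) had values of the opposite sign.

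Among the 9 receptor genes 1, *Glb1*, had an unadjusted p under 0.05, against 11.9% of all genes tested. Its locus also gives the elastin-binding protein as a splice form. *Glb1* was at -0.70 (SE 0.32, edgeR adjusted p = 0.411), and at -0.43 without *Pdgfra-Cre:LmnaF/F* replicate 2, the library at 14.3 CPM. The integrin gene *Itgb5* was at -0.35 (SE 0.23, edgeR adjusted p = 0.611) and *Ctsa*, for the carboxypeptidase of the elastin receptor complex, at -0.33 (SE 0.23, edgeR adjusted p = 0.631). With single libraries left out, *Itgb5* ran from -0.60 to -0.21 and *Ctsa* from -0.52 to -0.20. Of the 15 tested genes for elastolytic proteases and their inhibitors, 0 were called with edgeR, and the median was 0.17. At an unadjusted p under 0.05, 2 were lower and 1 higher, against 5.65% and 6.24% of all genes tested. *Timp1* was the higher one, at 1.63 (SE 0.49, edgeR adjusted p = 0.192), and it was called without *Pdgfra-Cre:LmnaF/F* replicate 3 (edgeR adjusted p = 0.035), the library at 13.2 CPM. *Timp2* had -0.72 (SE 0.23, edgeR adjusted p = 0.202) without overlap of the groups. The protease gene *Htra1* had -0.61 (SE 0.27, edgeR adjusted p = 0.404), and -0.95 without *Pdgfra-Cre:LmnaF/F* replicate 2, the highest of its genotype.

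**Figure D5:**
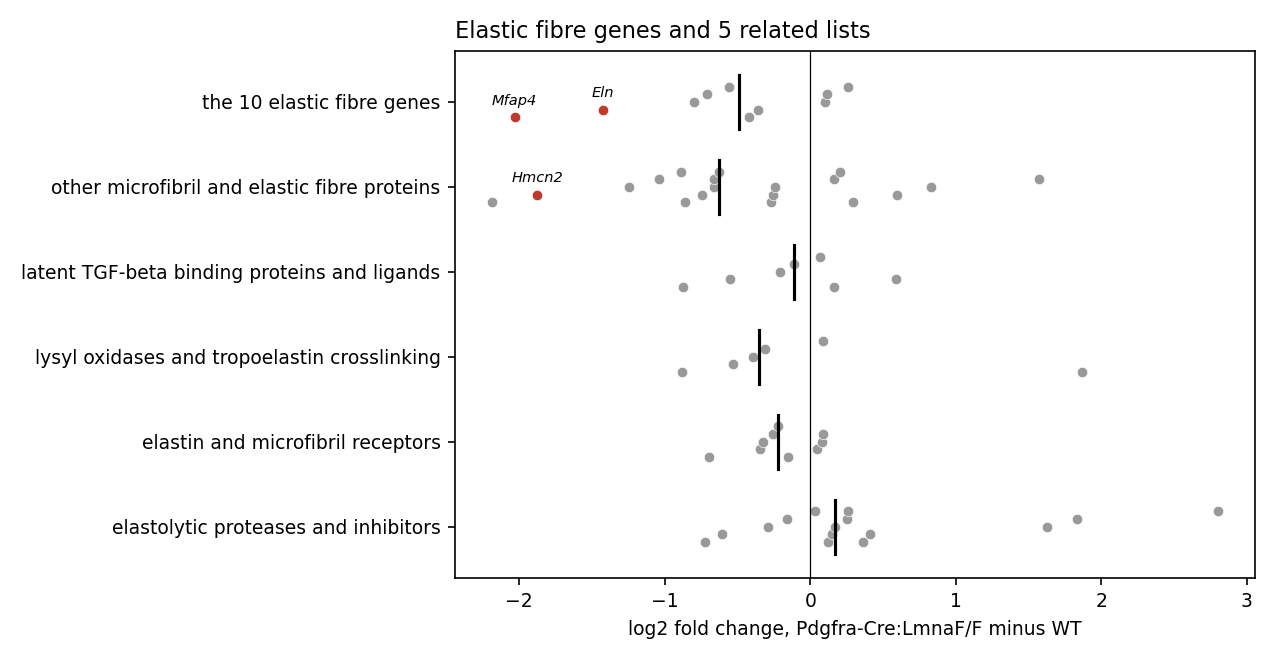
Log2 fold change, *Pdgfra-Cre:LmnaF/F* minus WT, of each tested gene of the 10 and of the 5 related lists, with a black line at each list's median and called genes in red. *Eln*, *Mfap4* and *Hmcn2* are the called genes, and the medians run from -0.63 to 0.17.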

How the data were processed

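The authors aligned 150 bp paired-end reads of strand-specific, ribosome-depleted libraries (RIN above 8) to mm10 with HISAT2 and assigned them to GENCODE genes with featureCounts. They deposited whole-number counts per gene symbol for each of the 8 libraries. The paper names RUV normalization and DESeq2, and the submitters' processing notes name DESeq2 and FastQC. The deposited values are unscaled counts, with totals of 2080555 to 12502949. Depth limits cover counting error only.

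Groups and replicate numbers came from the labels. No source used here states that numbers mark pairs, and where nothing says that samples came from separate animals, p-values measure only the spread between them. Counts were tested with edgeR 4.0.16 in R 4.3.3 (TMM factors, filterByExpr leaving 13036 genes, quasi-likelihood test of genotype, Benjamini-Hochberg adjustment over all of them, threshold 0.05). Fold changes are *Pdgfra-Cre:LmnaF/F* relative to WT. CPM used TMM-scaled totals, and exon lengths came from GENCODE M21. Log2 ratios used counts plus 0.5. Motifs were searched on both strands of the RefSeq windows.

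Alternatives were DESeq2 1.42.0, no filter or at least 10 counts in every library, upper-quartile or RLE scaling, limma-voom (limma 3.58.1) with sample weights, 1 RUVr factor, a replicate block and leaving out each library. Leaving out 2 libraries together and a myocyte marker covariate were added after seeing the data. The procedure was tested on simulated data. The 10 genes and all lists were chosen with earlier results of these data known. The genes named are the 10, *Lmna*, called genes of the 5 related lists, those among the 3 lowest p of each list, and the highest marker of each cell type, of which 1 list is not reported here.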

Additional observations from a re-analysis of the deposited data

Results flagged for a closer look

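Libraries that stood apart from the other 3 of their genotype were sought on the log2 scale, in 82 groups of 4 libraries, with Dixon's ratio of the gap to the range above its 95% critical value. Chance alone gives this in about 5% of groups, and 5 groups met it. *Fbn2* in WT replicate 3 was at 41.2 CPM against 118 to 143 CPM in the other WT libraries, with a ratio of 0.846. *Efemp1* was also lowest in WT replicate 3, at 52.2 CPM against 77.0 to 82.0 CPM (ratio 0.859). *Adamtsl2* in *Pdgfra-Cre:LmnaF/F* replicate 4 was at 661 CPM against 246 to 289 CPM (ratio 0.837). *Timp1* in WT replicate 2, the library with the fewest counts, was at 38.2 CPM against 18.5 to 19.9 CPM (ratio 0.902). The summed adventitial fibroblast markers in *Pdgfra-Cre:LmnaF/F* replicate 3 were at 728.0 CPM against 1665.5 to 1861.5 CPM (ratio 0.881).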

How the results depend on the processing

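*Eln* and *Mfap4* were both called under DESeq2, limma-voom, RLE and upper-quartile factors, no filter, the filter of 10 counts, 1 RUVr factor and both added alternatives. Leaving out a single library gave 0 to 2 called among the 10 genes, 13 to 76 among all genes and 0 to 2 among the related lists. The count over all genes, 53, became 303 with DESeq2, 138 with limma-voom, 274 with no filter, 81 with 1 RUVr factor and 81 with the myocyte covariate. The count over the related lists, 1, became 7, 3 and 6 with DESeq2, limma-voom and no filter, and 2 with either added alternative. The sign turned for *Fbn2* (-0.19 with limma-voom, -0.02 without WT replicate 3, -0.07 without *Pdgfra-Cre:LmnaF/F* replicate 3, single libraries left out giving up to 0.50), for *Fbln2* (-0.06 with limma-voom, -0.16 without *Pdgfra-Cre:LmnaF/F* replicate 4, -0.09 with WT replicate 2 also left out, otherwise up to 0.23) and for *Fbln5* (-0.01 and -0.11 in the last 2 fits, otherwise up to 0.26). The causes were not tested. No other direction changed for the 10 genes, and every ratio kept its direction. The 2 ratios with an unadjusted exact permutation p of 0.0286 had 0.0571 without any single library, the smallest that 3 against 4 libraries can give. The replicate block left 1 of the 10 genes called (*Eln*, with *Mfap4* at -2.17 and an edgeR adjusted p of 0.0601), 36 of all genes and 1 of the related lists. Deviations of libraries with the same number correlated at -0.03 to 0.04. The highest correlation of each WT library with any *Pdgfra-Cre:LmnaF/F* library was also only 0.018 to 0.04. These values cannot decide whether the numbers mark pairs. Paired sign-flip tests of the ratios cannot give a p under 0.125.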

Other observations

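The 10 genes together took 1.07% to 1.51% of all counts in WT and 0.741% to 1.17% in *Pdgfra-Cre:LmnaF/F*. Within that sum, *Fbln2* made up 21.8% to 23.7% in WT and 29.7% to 39.7% in *Pdgfra-Cre:LmnaF/F*, and *Eln* 10.1% to 17.1% and 6.32% to 9.51%. *Fbn1* was the largest share in every WT library, and *Fbln2* the largest in *Pdgfra-Cre:LmnaF/F* replicates 1, 3 and 4. These shares are parts of one sum, so a lower share of one gene raises the others, and they were not tested.

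The highest value within a genotype fell in the same library for many of the genes. *Pdgfra-Cre:LmnaF/F* replicate 4, with the most cardiac myocyte marker counts, was the highest of its group for 7 of the 10 genes (*Eln*, *Fbn1*, *Fbln2*, *Fbln5*, *Efemp1*, *Mfap4* and *Mfap5*). *Pdgfra-Cre:LmnaF/F* replicate 3, with the lowest summed adventitial markers, was the lowest for 5 of them (*Eln*, *Fbn1*, *Efemp1*, *Efemp2* and *Mfap5*). In WT, replicate 2 was the highest for 6 genes, and replicate 3 was the lowest for 6 (*Eln*, *Fbn1*, *Fbn2*, *Fbln2*, *Efemp1* and *Efemp2*) and the highest for *Fbln5*, *Mfap4* and *Mfap5*. What part these differences between libraries have in the spread was not tested.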
